A study of Homo sapiens with 6 samples.

Results

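RAX (ENSG00000134438), the retina and anterior neural fold homeobox gene, was examined in RNA sequencing libraries of ARPE-19 cells, a human cell line derived from retinal pigment epithelium (RPE). It is 1 gene of the 7758 genes for which values were deposited, and it was selected by its own level in these libraries, so its levels are given as a description and without a test. The cells carried a lentiviral short hairpin RNA that was either directed against METTL3 (sh-METTL3, METTL3-silenced cells) or a negative control (sh-Control). METTL3 is the catalytic subunit of the complex that writes N6-methyladenosine (m6A) into mRNA. Per the study's methods, stably transduced cells were selected with puromycin or neomycin. By the same methods, both groups received LPS (lipopolysaccharide from bacterial cell walls, an inflammatory stimulus) at 1 μg/ml over 24 h. No group without LPS was analysed here. Each group had 3 libraries, and whether these came from separate infections or cultures was not stated in the sources used here, so that p-values measure only the spread between these samples.

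RAX encodes a paired-class homeodomain transcription factor. During development it is switched on in the anterior neural plate, where it marks the eye field together with PAX6, SIX3, SIX6 and LHX2, and it is needed for the optic vesicles to form. It remains active in retinal progenitors, in the developing hypothalamus and pituitary, and in some glia of the mature retina, while the optic vesicle cells that become pigment epithelium lose it as they turn on MITF. Loss of RAX causes absent or small eyes.

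On GRCh38, RAX lies on the minus strand of chromosome 18, from 59267035 to 59274086, and its exons cover 3725 bases. GENCODE release 29 gives it 4 transcripts. RAX-202 has 3 exons and 3197 bases, of which 1038 code for 346 residues. RAX-201 skips the middle exon, RAX-203 starts farther upstream, and RAX-204 is a retained intron. The deposited values are per gene, so these transcripts cannot be told apart. The homeobox, the DNA-binding part that defines the gene, takes up residues 136 to 195 of RAX-202. Its 180 bases are split between the end of exon 2 (chr18:59272361-59272498, 138 bases) and the start of exon 3 (chr18:59269460-59269501, 42 bases). It is shown because a skip of the middle exon removes most of it, and the capitals mark the 18 bases that code for the WFQNRR motif of the recognition helix, which contacts DNA:
RAX homeobox: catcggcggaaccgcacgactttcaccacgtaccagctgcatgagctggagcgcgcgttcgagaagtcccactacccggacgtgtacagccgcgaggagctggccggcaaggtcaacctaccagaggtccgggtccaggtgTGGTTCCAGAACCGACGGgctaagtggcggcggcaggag

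The region before the RefSeq start site of RAX (59273454) is shown because RAX reads were found in 1 group only. The 250 bases upstream, chr18:59273455-59273704 on the minus strand of GRCh38.p14, lie in the first intron of RAX-203. The capitals mark its CpG dinucleotides:
RAX promoter: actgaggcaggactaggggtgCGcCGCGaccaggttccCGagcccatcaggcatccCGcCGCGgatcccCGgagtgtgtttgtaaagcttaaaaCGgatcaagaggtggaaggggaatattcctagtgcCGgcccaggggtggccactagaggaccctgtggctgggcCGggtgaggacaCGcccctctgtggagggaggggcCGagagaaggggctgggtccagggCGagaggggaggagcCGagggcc
The printed stretch holds 15 CpG, and the full RefSeq window, which adds 50 bases after the start site, holds 20. Over 35116 promoter windows of the same length the median was 14, and 58.8% held fewer than the RAX window. Over the 5590 listed genes with a window the median was 26, above the count of RAX. Both strands were searched for 4 motifs, of which TAATTA and GGATTA share the letters ATTA. The TATA box TATAAA (in 11.5% of all promoter windows), the homeodomain core TAATTA (4.84%), the OTX-type core GGATTA (6.36%) and the nuclear receptor half-site AGGTCA (13.8%) were not found in the RAX window.

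The values are read counts that the authors divided by 1 size factor per library, here called scaled counts. Whole reads were recovered from them. Between 10898434 and 17750052 reads per library fell on the listed genes, and these sums cover only the listed genes, so the full depth is unknown. No pair of libraries of a group agreed within sampling noise, with a chi-square per degree of freedom from 3.89 to 17.6. sh-METTL3 replicate 3 stood apart from replicates 1 and 2 of its group, with values of 17.6 and 16.6 against 3.89 between those 2 libraries.

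METTL3, the targeted gene, had scaled counts of 1154, 1108 and 1091 in the 3 sh-Control libraries and 966, 1001 and 765 in the sh-METTL3 libraries. The groups did not overlap, and the mean was lower in the METTL3-silenced cells by a modest amount (log2 fold change -0.30 ± 0.096, SE; limma adjusted p = 0.0108). This difference shrank to a log2 fold change of -0.18 when sh-METTL3 replicate 3 was left out (limma adjusted p = 0.0135). The call was lost when edgeR was run with RLE factors (log2 fold change -0.17, adjusted p = 0.0881), and over the 13 alternatives this p lay between 0.00602 and 0.0881.

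RAX had 0 reads in each of the 3 sh-Control libraries. It had 407, 327 and 473 reads in sh-METTL3 replicates 1, 2 and 3, or 1207 in all. The gene was therefore below detection in the controls and well above it in the METTL3-silenced cells, with no overlap between groups. In scaled counts the METTL3-silenced libraries stood at 380 (95% exact Poisson interval 344 to 418), 421 (377 to 470) and 530 (483 to 580), with a mean of 444 ± 77.4 (SD, n = 3). A count of 0 allows up to 3 reads, which is 2.39, 2.88 and 2.80 scaled counts in sh-Control replicates 1, 2 and 3. Set against the mean of these 3 limits, RAX was at least 165-fold higher in the METTL3-silenced cells. The lowest silenced library set against the highest control limit still gave at least 132-fold. Intervals and limits cover counting error only, and in bulk RNA a change in the number of cells that express a gene and a change in RNA per cell cannot be told apart.

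**Figure D1:**
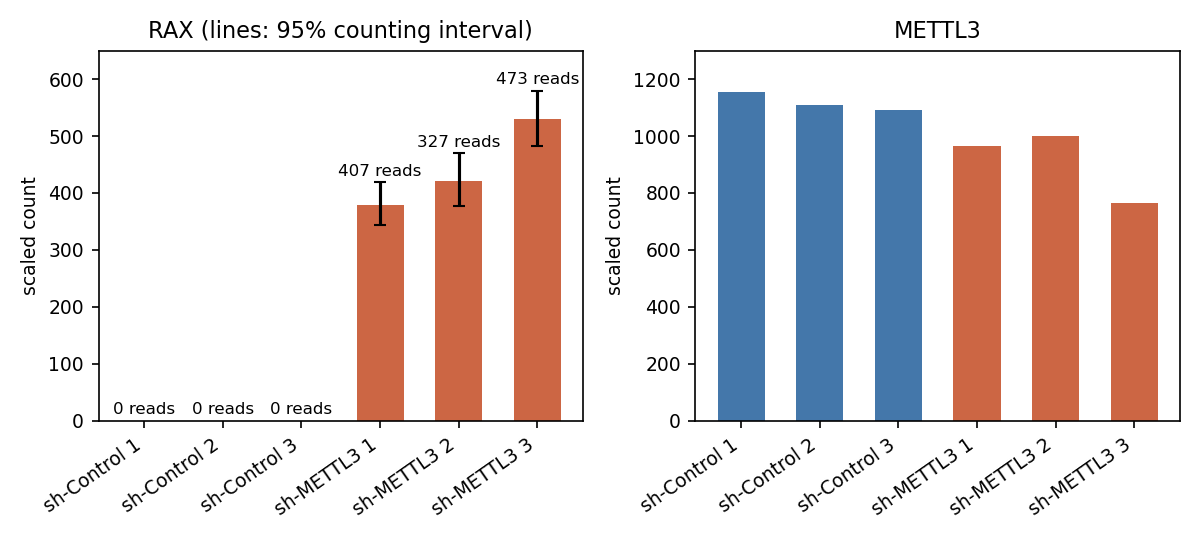
Scaled counts of RAX (left) and METTL3 (right) in each of the 6 libraries, 1 bar per library, blue for sh-Control and orange for sh-METTL3, with the 95% counting interval and the number of reads on the RAX bars. RAX is at 0 in the 3 sh-Control libraries and between 380 and 530 in the 3 sh-METTL3 libraries, while METTL3 lies between 1091 and 1154 in sh-Control and between 765 and 1001 in sh-METTL3.

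The 3 METTL3-silenced libraries were not alike in RAX. The highest was 1.39 times the lowest, and the coefficient of variation was 17.4%, against 4.60 to 5.53% from counting alone. Among the 2280 listed genes whose mean in these libraries was within 2-fold of that of RAX, the median coefficient of variation was 7.71%, and 89.9% of them varied less than RAX. Replicate 3, the library that stood apart, had the highest RAX and the lowest METTL3. Replicate 2 had higher RAX (421) and also higher METTL3 (1001) than replicate 1 (380 and 966). The part of replicate 3 in the RAX level was not tested. Without replicate 3 the mean was 401, and without replicate 1 it was 476.

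On the log2 scale with a pseudocount of 1, the difference in RAX was 8.78. This value depends on the pseudocount, since the control is at 0, and is no lower bound. The largest difference among the listed genes was that of COL5A1, a fibrillar collagen chain (11.31). On this scale RAX came next, followed by ADAMTS2, the protease that trims procollagen ends (7.92), the noncoding LINC00839 (7.15) and the pseudogene CCNYL2 (7.0). The place of RAX after COL5A1 is not fixed by the data, since its bound of 165-fold is below the ratio of means of ADAMTS2 (334-fold). The median over all listed genes was -0.21.

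**Figure D2:**
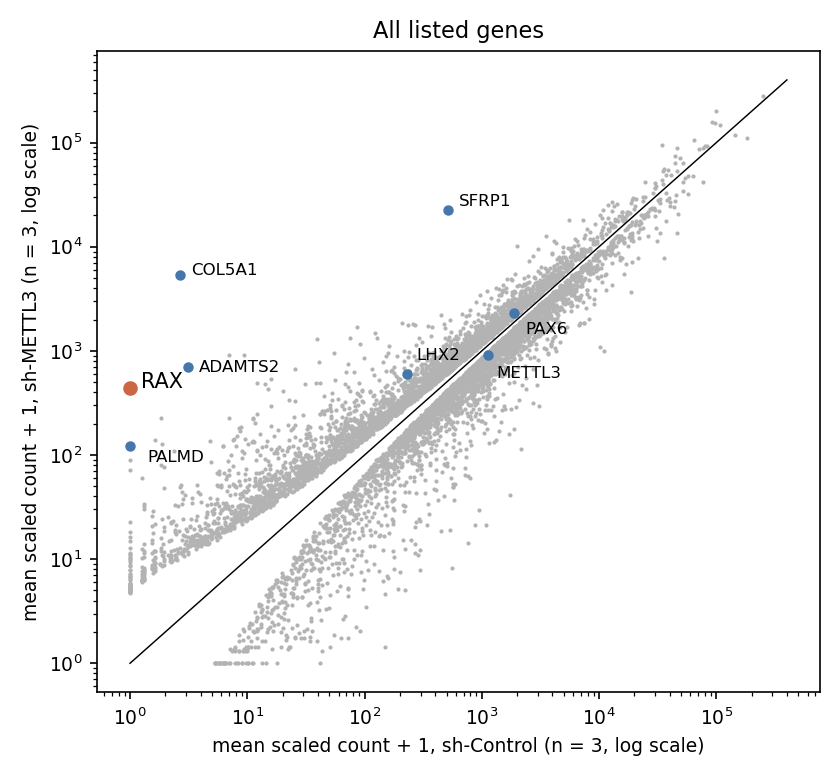
Mean scaled count plus 1 of each of the 7758 listed genes in sh-Control (horizontal, log scale) and sh-METTL3 (vertical, log scale), with the line of equal levels and 8 genes named. RAX lies at the left edge, where the controls have no read, at a mean of 444 in sh-METTL3, with PALMD (122) below it.

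Levels of different genes were compared per kb of exon, with all annotated exons of a gene counted together. This length can exceed that of any single transcript, which lowers the value per kb. RAX reached 102, 113 and 142 scaled counts per kb in the 3 METTL3-silenced libraries, a mean of 119. The median listed gene stood at 107 in the same libraries, and 53.2% of the listed genes were lower than RAX. Per kb, RAX was thus near the middle of the listed genes, and unlisted genes have no values here.

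Among the eye field and paired-class homeobox genes in the table, together with MITF, LHX2 was highest per kb, at 226 (216 to 246 over the 3 METTL3-silenced libraries). MITF, the master regulator of pigment cells, followed at 156 (149 to 161). RAX and PAX6, at 112 (109 to 116), were next to each other and overlapped, so their order per kb is not fixed by these libraries. Their closeness depends on the exon length, which is 20812 bases for PAX6 and 3725 for RAX. In scaled counts PAX6 was higher, with a mean of 2332 against 444 for RAX in sh-METTL3. MEIS2 (75.7), SHOX2 (71.3), TBX3 (30.6), PAX8 (22.6), MEIS1 (19.3), DRGX (14.9) and PITX1 (2.84) were lower than RAX, each with no overlap with it. PAX6 was the only 1 of these 10 genes whose range overlapped that of RAX.

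Genes of the same network were then described from lists of 219 genes in 8 groups, RAX left out. The table holds only genes that the authors had called as changed, so that 66 of the 219 were listed and the others were not analysed here. All 66 passed the limma test (35 higher and 31 lower in METTL3-silenced cells), as did 99.9% of all listed genes (47.6% higher and 52.2% lower). The split of all listed genes depends on the scaling, since edgeR with RLE factors called 3704 higher and 3335 lower. In 65 of the 66 the groups did not overlap, against 98.5% of all listed genes. Passing the test therefore says nothing about these groups, and their directions and values are described instead.

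Of 19 other eye field transcription factors, 5 were listed, 3 higher and 2 lower, and their median log2 fold change was 0.31. LHX2, a LIM-homeodomain factor needed for the optic vesicle to progress, had scaled counts of 225, 238 and 229 in sh-Control and 577, 573 and 653 in sh-METTL3 (log2 fold change 1.37 ± 0.092, SE; limma adjusted p = 8.2e-07). PAX6, the paired and homeodomain factor active throughout eye development, stood at 1887, 1878 and 1855 in sh-Control and at 2329, 2260 and 2407 in sh-METTL3 (0.32 ± 0.051; limma adjusted p = 0.000261). Both were thus well expressed in the control cells, where RAX was not detected, and rose by far smaller factors. In scaled counts the rise of PAX6 was not smaller, from a mean of 1873 to 2332, against 0 to 444 for RAX. MEIS2, a cofactor of PAX6 and other homeodomain proteins, rose by 0.31 on the log2 scale (limma adjusted p = 0.00758). Its relative MEIS1 moved the other way, from 387, 390 and 474 to 265, 205 and 163 (log2 fold change -1.0). TBX3, a T-box repressor of the early eye field, fell by 0.75 on the log2 scale. SIX3, SIX6 and OTX2 were not in the table and were not analysed here.

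The optic vesicle patterning list sorts the vesicle into neural retina, pigment epithelium and stalk. Of its 25 genes 7 were listed, 4 higher and 3 lower, and their median log2 fold change was 0.68 (0.58 with ALDH1A1, which had no read in the controls, at its lower bound). MITF stood at 598, 644 and 628 in sh-Control and at 1067, 1137 and 1159 in sh-METTL3 (log2 fold change 0.85 ± 0.067; limma adjusted p = 2.29e-06). RAX and MITF, whose territories separate in the embryo, were thus both higher in the same libraries. The BMP antagonist CHRDL1 rose by 0.92 and the Eph receptor EPHB2 by 0.68 on the log2 scale, while its ligand class member EFNB1 fell by 0.57. GDF6, a BMP-family ligand of dorsal eye, dropped from 20.7, 13.5 and 12.2 scaled counts to 1.87, 1.29 and 0. CYP1B1, a retinoid-metabolising enzyme, was lower by a small amount (log2 fold change -0.28, limma adjusted p = 0.00685), a call that edgeR with RLE factors did not make (adjusted p = 0.0922).

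Signals that set the eye field within the neural plate, mainly Wnt, BMP, Hedgehog and Notch, had 18 of 38 genes listed, 8 higher and 10 lower, and their median log2 fold change was -0.37. SFRP1, a secreted Wnt inhibitor, had the largest change of this list, from 488, 547 and 503 scaled counts in sh-Control to 21000, 22388 and 23759 in sh-METTL3 (log2 fold change 5.45; limma adjusted p = 8.88e-12). The noncanonical ligand WNT5A fell from 1827, 2130 and 2131 to 597, 759 and 722. WNT2B, which favours peripheral eye fates, rose from 996, 1180 and 1290 to 2980, 3210 and 2151. The 2 ligands thus moved in opposite directions. The Wnt inhibitor DKK1 fell by 1.32 on the log2 scale, whereas DKK3 rose by 0.33 and the ligand WNT4 by 0.91. FZD5, the Wnt receptor known from the eye field, fell from 227, 218 and 229 to 158, 133 and 178 (log2 fold change -0.53; limma adjusted p = 0.00367). Among the BMP antagonists GREM1 fell by 3.42 and NOG fell by 1.49 on the log2 scale, and the ligand BMP4 rose by 0.48. The Hedgehog receptor PTCH1 was lower (log2 fold change -0.80). In the Notch pathway, NOTCH1 was lower (-0.47), and JAG1 (0.37) and its target HES1 (0.67) were higher. The value of JAG1 was 0.20 when sh-METTL3 replicate 3 was left out.

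**Figure D3:**
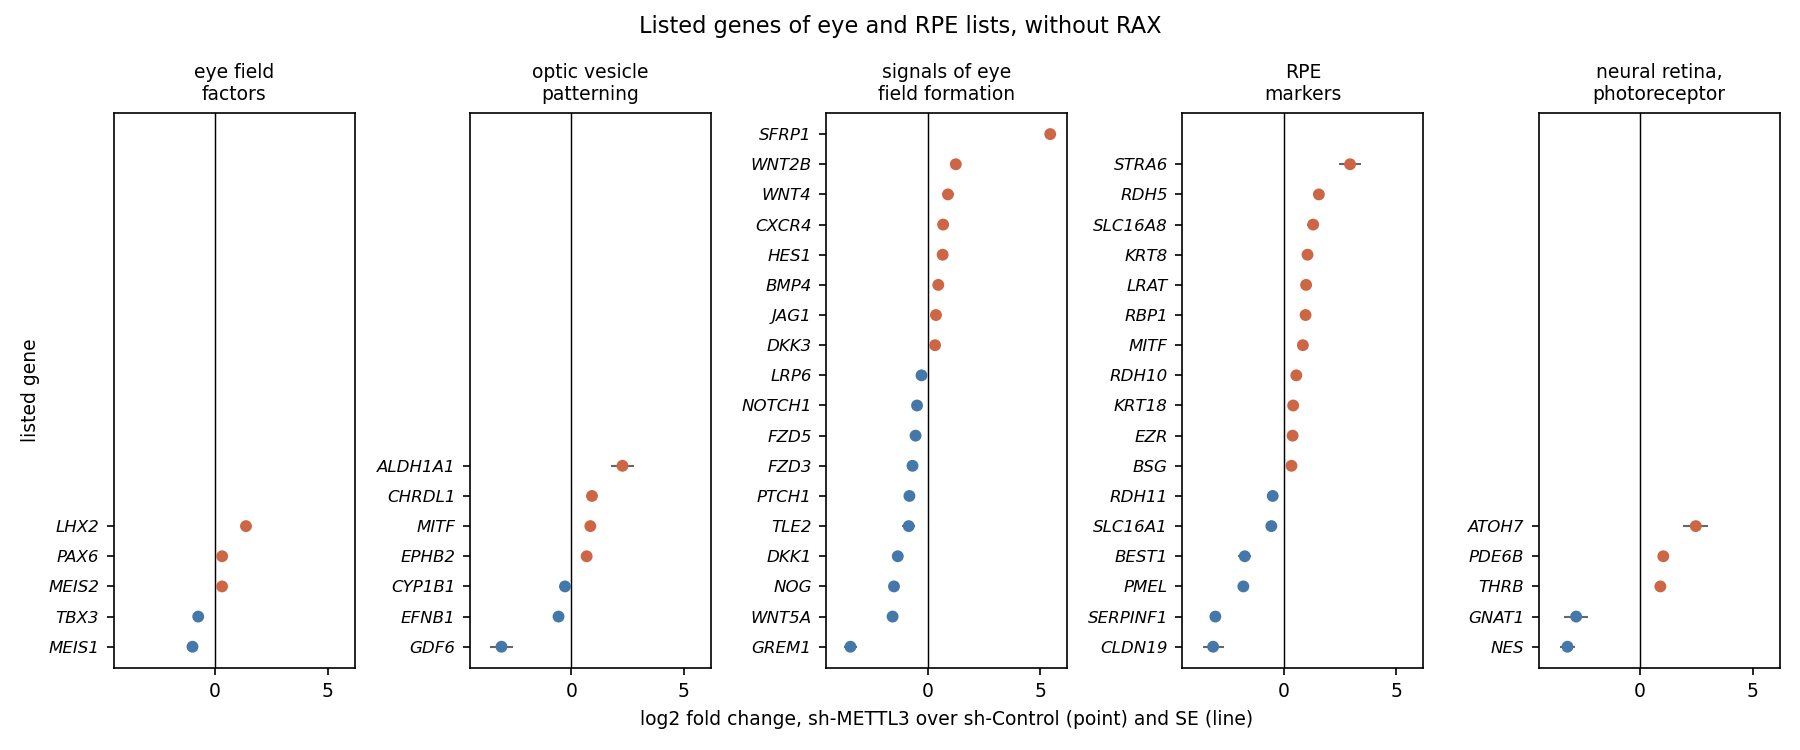
Log2 fold changes (sh-METTL3 over sh-Control, pseudocount 1) with their SE for the listed genes of 5 lists, orange where higher and blue where lower, RAX left out. Each of the 5 lists has genes on both sides of 0, from GREM1 at -3.42 to SFRP1 at 5.45.

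The pigment epithelium label was checked against 30 RPE markers, of which 17 were listed, 11 higher and 6 lower, and their median log2 fold change was 0.41. The summed level of these markers ranged from 61678 to 66256 in sh-Control and from 83696 to 88154 in sh-METTL3. The keratins KRT8 and KRT18 (overlapping genes, whose reads cannot be told apart in the overlap without strand), BSG and EZR made up much of that sum. RPE65, RLBP1, TYR, TYRP1 and TTR, which define the mature tissue, were not in the table, so the label could be checked only in part. The visual cycle genes RDH5 (73.4, 73.0 and 63.6 to 210, 202 and 209) and STRA6, the retinol uptake receptor (15.2, 20.2 and 3.74 to 101, 96.7 and 72.8), were higher in METTL3-silenced cells. SERPINF1, the anti-angiogenic PEDF, fell from 1380, 1419 and 1413 to 164, 162 and 184. The melanosome protein PMEL fell from 361, 373 and 370 to 113, 107 and 96.3. BEST1, a chloride channel of mature pigment epithelium, fell from 79.0, 81.7 and 87.9 to 14.9, 32.2 and 29.1, and the tight junction gene CLDN19 fell from 7.98, 5.76 and 10.3 to 0 in each library. RPE genes thus moved in both directions beside RAX. This held within retinoid handling too, where LRAT (0.99) and RDH10 (0.56) rose on the log2 scale and RDH11 fell by 0.49.

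Of 31 neural retina and photoreceptor markers 5 were listed, 3 higher and 2 lower, and their median log2 fold change was 0.90. Their summed level ranged from 343 to 366 in sh-Control and from 584 to 664 in sh-METTL3. Most of it came from PDE6B, a rod phosphodiesterase subunit, which stood at 228, 230 and 220 in sh-Control and at 413, 461 and 517 in sh-METTL3. THRB, the thyroid hormone receptor of cones, was 75.0, 75.9 and 102 in sh-Control and 159, 173 and 140 in sh-METTL3. ATOH7, the proneural factor of retinal ganglion cells, rose from at most 1 read to 9.33, 6.44 and 3.36 scaled counts. The progenitor filament gene NES went down, from 35.1, 29.8 and 31.8 to 1.87, 2.58 and 3.36, as did GNAT1, the rod transducin subunit, from 4.79, 7.69 and 13.1 to 0.933, 0 and 0. Whether these genes have a part in the RAX result was not tested.

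RAX is also known from the hypothalamus and pituitary. Of 25 markers of hypothalamus, pituitary and pineal gland 3 were listed. PITX1, an early pituitary homeobox gene, had scaled counts of 13.1, 9.02 and 7.84 in sh-METTL3 and at most 1.87 in sh-Control. CRYM, a thyroid hormone-binding protein, went from 3.99, 4.80 and 1.87 to 30.8, 18.0 and 33.6. TBX3, also on the eye field list, was lower, as given above. These levels are low, and they give no view of the 22 markers that were not listed.

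Fibroblast and mesenchymal markers were examined because ARPE-19 cells can take on such features in culture. Of 22 markers 10 were listed, 3 higher and 7 lower, and their median log2 fold change was -0.69. Their summed level ranged from 229160 to 257538 in sh-Control and from 187487 to 224905 in sh-METTL3. The lower sum rests on fibronectin (FN1), which went from 168348, 181935 and 193714 to 119416, 130368 and 79685. Without FN1 the sum of the other 9 markers was higher in METTL3-silenced cells, at 94537 to 107802 against 60812 to 64292 in sh-Control. That higher sum rests on vimentin (VIM), and without both genes the other 8 summed to 15920 to 17810 in sh-Control and 8871 to 10693 in sh-METTL3. The collagen chain COL1A1 fell from 6799, 7488 and 7858 to 1664, 2124 and 1755, and the surface marker THY1 fell from 200, 162 and 166 to 20.5, 21.9 and 43.7. VIM moved the other way, from 44892, 46899 and 46013 to 85536, 83844 and 98932. The part of these shifts in the RAX level was not tested.

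Within the homeobox genes, the change of RAX was compared with that of its relatives. Of 47 other paired-class genes 5 were listed, 4 higher and 1 lower, and their median log2 fold change was 0.56. DRGX, a paired-class factor of sensory neurons, came closest to RAX in pattern. It had 1.60, 0 and 3.74 scaled counts in sh-Control and 28.9, 20.6 and 79.5 in sh-METTL3 (log2 fold change 4.02 ± 0.63, SE; limma adjusted p = 0.000233), and like RAX it was highest in sh-METTL3 replicate 3. SHOX2 rose from 233, 246 and 250 to 356, 369 and 354, and PAX8 fell by 0.52 on the log2 scale. By the annotation in the table itself, 27 listed genes belong to the homeobox family, RAX included. Of the other 26, 12 were higher and 14 lower in METTL3-silenced cells, close to the split of all listed genes. None of the 26 had 0 reads in each control library, although 6 had a control mean under 10 scaled counts. RAX ranked 8th of the 27 per kb in the METTL3-silenced cells. MEIS3, named after its values were seen, showed the opposite pattern to RAX, with 247 ± 20.9 scaled counts in sh-Control and 14.2 ± 2.21 in sh-METTL3 (SD, n = 3; log2 fold change -4.03; limma adjusted p = 9.47e-08).

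The 10 genes most like RAX were found by the Euclidean distance between log2 scaled counts (pseudocount 1) over the 6 libraries. This measure takes genes of like level in the same libraries and says nothing about shared control. They were CCNYL2 (distance 2.57), ADAMTS2 (3.08), PALMD (3.21), GPC3 (3.28), NEFH (3.62), MAOB (4.0), PIEZO2 (4.23), NLGN4X (4.52), PNMA6A (4.58) and OSCAR (4.77). CCNYL2, a cyclin-related pseudogene, had 1.60, 0 and 0.935 scaled counts in sh-Control and 241, 269 and 160 in sh-METTL3. ADAMTS2 had 1.60, 0.961 and 3.74 against 738, 722 and 645. PALMD, a palmdelphin gene expressed in muscle and vessel cells, had no read in the controls and 105, 130 and 130 scaled counts in sh-METTL3. In these genes, as in RAX, the controls stood near or at 0.

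GPC3, a glypican that binds Wnt and Hedgehog ligands, had 142, 130 and 143 scaled counts in sh-METTL3 and 2 reads over the 3 controls together. NEFH, the heavy neurofilament chain, had 137, 126 and 113. MAOB, which breaks down monoamines, had no read in the controls and 88.6, 81.2 and 95.2 scaled counts in sh-METTL3. The others were the mechanosensitive channel PIEZO2 (113, 125 and 88.5), the synaptic adhesion gene NLGN4X (69.0, 70.9 and 73.9), PNMA6A (77.4, 68.3 and 94.1) and the collagen receptor OSCAR (66.2, 67.0 and 91.8). CCNYL2 and PNMA6A belong to families of near-identical copies, and their reads may be shared with these copies. GPC3, MAOB, NLGN4X and PNMA6A, 4 of the 10 genes, lie on the X chromosome, which holds 3.24% of all listed genes (251 of 7758), and PIEZO2 lies on chromosome 18 with RAX. The number on the X chromosome was 2 when sh-Control replicate 2 was left out, 2 with Pearson's correlation, and 3 to 5 under the other alternatives, so it depends on the libraries and the measure. With Pearson's correlation in place of the distance, 3 of the 10 genes were shared, so which genes are most like RAX depends on the measure.

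**Figure D4:**
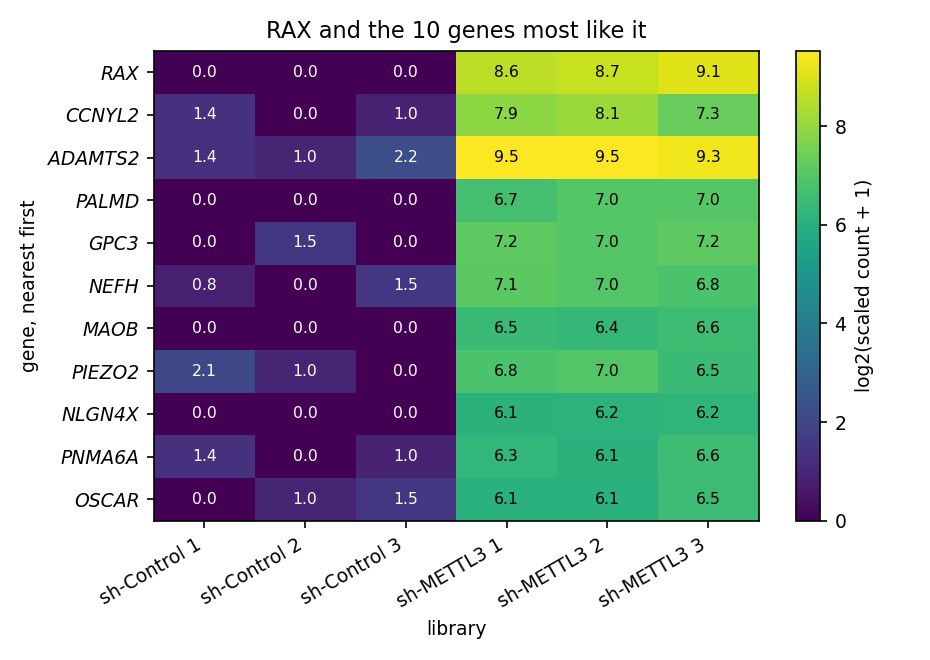
Log2 of the scaled count plus 1, as colour and printed value, in each of the 6 libraries for RAX and the 10 genes most like it, nearest first. All stand at or near 0 in the 3 sh-Control libraries, and in sh-METTL3 ADAMTS2 is the only 1 of the 10 above RAX.

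Among 6 of these 10 genes with a RefSeq promoter window, CpG counts were 47 in ADAMTS2, 43 in PNMA6A, 38 in PIEZO2, 28 in MAOB, 8 in NLGN4X and 6 in PALMD. RAX, with 20, lay between these, and genes of like pattern thus had CpG-rich and CpG-poor promoters.

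RAX and PALMD were the only listed genes with 0 reads in each control library and a mean of at least 100 scaled counts in the METTL3-silenced cells. No gene showed the reverse at that level, that is, 0 reads in each sh-METTL3 library and a control mean of at least 100. RAX stood at 444 and PALMD at 122 ± 14.2 (SD, n = 3). At lower levels both patterns occurred, and those genes are given among the additional observations.

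The neighbourhood of RAX on chromosome 18 was then examined. Distances are between the lower annotated coordinates. Within 1 Mb on either side, GENCODE release 29 annotates 53 other genes, 9 of them protein-coding. The closest protein-coding genes, CPLX4 (at 8.12 kb), GRP (at -46.9 kb, toward lower coordinates) and LMAN1 (at 60.8 kb), were not in the table and were not analysed here, nor were MALT1 and SEC11C. The table held 7 genes within 1 Mb, and all 7 were lower in the METTL3-silenced cells (median log2 fold change -2.34, or -1.76 with MIR122HG, which had no read in sh-METTL3, at its bound). The median of -2.34 is the value of AC105105.1, which lies within ALPK2 and is not separate from it, as described below.

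CCBE1, a secreted factor of lymphatic growth 164 kb from RAX, fell from 4103, 4927 and 4642 to 2514, 2389 and 2517 scaled counts. ZNF532, a zinc finger gene, fell from 1481, 1458 and 1519 to 1158, 1254 and 1123. PMAIP1, the pro-apoptotic NOXA, fell from 629, 599 and 547 to 198, 144 and 184 (log2 fold change -1.76; limma adjusted p = 1.43e-06). In these genes the direction was opposite to that of RAX in each library. ALPK2, an alpha-kinase gene, fell from 1902, 2148 and 2170 to 375, 406 and 226 (log2 fold change -2.67; limma adjusted p = 9e-07). AC105105.3 and AC105105.1, with log2 fold changes of -2.55 and -2.34, lie within ALPK2, and without strand their reads and those of ALPK2 cannot be told apart, so these 3 genes are not separate observations. MIR122HG was listed at 6.38, 2.88 and 3.74 scaled counts in sh-Control and at 0 in sh-METTL3.

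Within 5 Mb, 13 of 17 listed genes were lower (76.5%). The median log2 fold change of the 17 was -0.83, or -0.74 with MIR122HG at its bound. Over the whole of chromosome 18 57 of 105 were lower (54.3%), and over all other listed genes 52.3%. Both shares lie within the 95% exact binomial interval of the share within 5 Mb, 50.1 to 93.2%. The 4 genes that were higher within 5 Mb were ONECUT2, a cut-homeobox factor (log2 fold change 1.89), TNFRSF11A (0.91), PHLPP1 (0.90) and RNF152 (0.61), whose groups overlapped and whose call was lost without sh-METTL3 replicate 3 (log2 fold change 0.39, limma adjusted p = 0.0873). SERPINB2, a protease inhibitor 4605 kb from RAX, fell most in this window, from 586, 544 and 481 to 18.7, 20.6 and 14.6 scaled counts. RAX was thus higher while most listed genes of this window were lower. The interval does not set this share apart from that of all listed genes. The lower genes include AC105105.3 and AC105105.1, which lie within ALPK2, and MIR122HG, which was near the floor. Neighbouring genes are not independent of each other and the window was not tested.

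**Figure D5:**
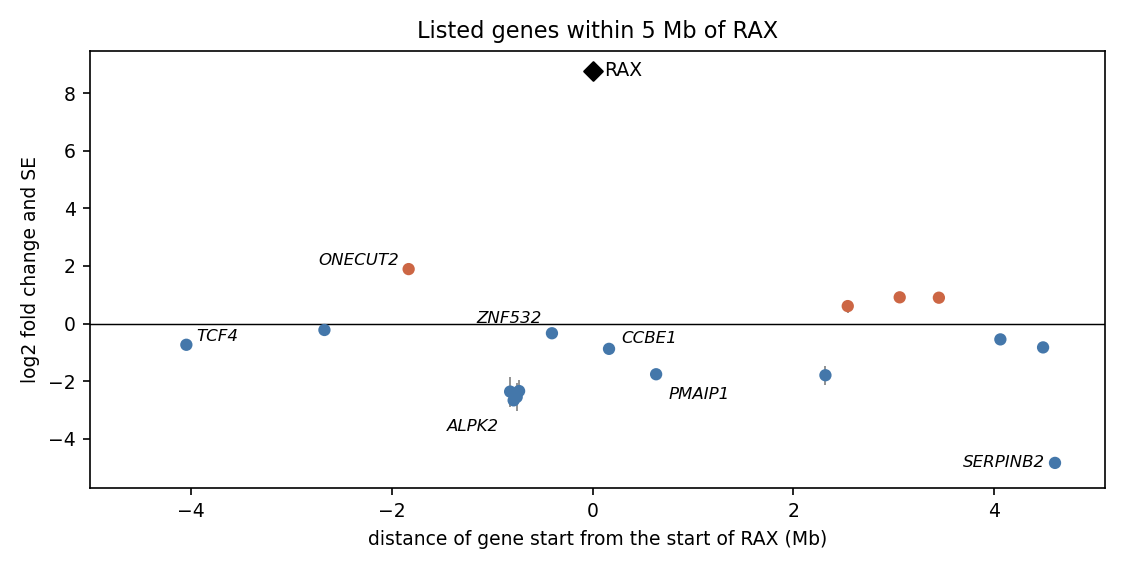
Log2 fold changes (sh-METTL3 over sh-Control, pseudocount 1) with their SE of the 17 listed genes within 5 Mb of RAX, and of RAX (diamond, 8.78), against the distance between gene starts in Mb. Points below 0 (blue) number 13, and the 7 genes within 1 Mb are all among them.

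The mRNA of RAX was searched for GGACT, the most usual sequence around m6A sites, since METTL3 writes that mark. RAX-202 holds 6 matches on its sense strand, or 1.88 per kb. The median over 6737 listed genes with a coding transcript was 0.936 per kb, and 89.6% of these genes had fewer per kb than RAX. A match is a description of the sequence, and m6A itself was not measured in the files used here.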

How the data were processed

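RNA sequencing values of 6 ARPE-19 libraries (3 sh-Control, 3 sh-METTL3, LPS in all) were used. The submitters' processing notes name HISAT2 2.0.5 and hg38, and Cufflinks, RefSeq mRNAs and single-end reads are named in the study's methods. Those methods credit differential expression to Cufflinks. The read counter, strandedness and statistical test behind the deposited values were not given in the sources used here. The authors deposited a signal per gene and library, the read count divided by 1 size factor, and 100% of the values in each library correspond to whole reads within 0.02 reads. The authors also deposited group means, log2 fold changes of their own, p-values and adjusted p-values. None of these was used as a result here. No deposited adjusted p-value was above 0.05, so the 7758 rows are genes that the authors had called, and all coordinates and exonic lengths equal GENCODE release 29 on GRCh38. In 13 rows the symbol differed and was replaced from that release.

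All genes were fitted with limma 3.58.1 (R 4.3.3, intensity trend, no covariates) on log2 of the scaled count plus a pseudocount of 1, with Benjamini-Hochberg adjustment over the 7758 genes, with a threshold of 0.05. On this scale the change of low genes is understated. Because the table holds scaled values, limma replaced the count test that would fit raw counts. Alternatives were edgeR 4.0.16 on the recovered reads with TMM or RLE factors, DESeq2 1.42.0, a pseudocount of 0.1, a mean of at least 50, adjustment over 25000 tests, a replicate block and leaving out each library in turn. The fits were tested on simulated data in which 200 of the 7758 genes were changed. These data differ from that setting, since 99.9% of the listed genes passed, so the simulation did not check the scaling. RAX and the gene lists were chosen with earlier results of these data known. Named genes were RAX, METTL3, listed members of the lists, the 10 genes most like RAX, genes with 0 reads in each control library and the listed genes within 1 Mb of RAX; other genes were named after their values were seen. Promoter windows came from RefSeq (GRCh38.p14), and exons and transcripts from GENCODE release 29. A single gene that met one of these rules is not reported here.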

Additional observations from a re-analysis of the deposited data

How the results depend on the processing

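The mean of RAX in sh-METTL3, 444 scaled counts, was 450.3 with TMM factors, 463 with RLE factors, and 401 to 476 when 1 library was left out. Its log2 fold change of 8.78 became 12.10 with a pseudocount of 0.1 and ranged from 8.65 to 8.89 when 1 library was left out. Genes with no read in the controls and a mean of at least 100 in sh-METTL3 numbered 2, and 2 to 3 when 1 library was left out. They numbered 5 when up to 3 reads, summed over the control libraries, were allowed and 12 at a mean of at least 10. The reverse pattern was met by 0 genes, by 1 with up to 3 reads summed over the sh-METTL3 libraries, and by 6 at a mean of at least 10. It was met by 0 to 1 when 1 library was left out (1 without sh-METTL3 replicate 2). Of the 10 genes most like RAX, 3 were shared with Pearson's correlation, 9 with a pseudocount of 0.1 and 7 to 10 when 1 library was left out. The share of lower genes near RAX was 76.5% within 5 Mb, 100% within 1 Mb and 73.9% within 10 Mb.

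The number of genes past the threshold (7747) lay between 6521, with a mean of at least 50, where fewer genes were tested, and 7757, with DESeq2. When 1 library was left out it lay between 7579 and 7704, and of the 66 list genes 65 to 66 passed. RLE factors moved the median log2 fold change of all listed genes by 0.12 and gave 7039 calls, 3704 higher and 3335 lower, against 3695 higher and 4052 lower. Of the 66 list genes, 64 kept their call and direction under each alternative that tested them, and none was reversed. CYP1B1 lost its call with RLE factors (as did METTL3, which is on no list), and TLE2 lost its call with adjustment over 25000 tests (adjusted p = 0.0537) and without sh-Control replicate 1 (adjusted p = 0.0813). With a replicate block 7750 genes passed, of which 7745 were among the 7747. The numbers share only a label, since same-numbered libraries did not deviate together (correlations 0.0036, 0.0193 and -0.015).

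The table holds only genes that the authors had called, from 3 libraries a group, so list counts describe the table and not the transcriptome, and the depth of the libraries is unknown. A count of 0 limits RAX in the controls to about 3 reads per library and does not show that the gene was silent.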

Other observations

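At a mean of at least 10 scaled counts, 12 listed genes had 0 reads in each control library, RAX and PALMD included. MAOB (88.3) and NLGN4X (71.3) followed, and the mean levels of the others were lower. They were the protocadherin PCDHA6 (21.8), the heparan sulfate 6-O-sulfotransferase HS6ST2 (17.2), MIR4787 (15.3), the oligodendrocyte lineage factor OLIG1 (13.9), AL512622.1 (11.8), AL445487.1 (10.4), UBE2U (10.1) and DOK5 (10.1). PCDHA6 shares exons with its cluster, so its reads are uncertain. Another transcription factor of the neural tube, OLIG1, was thus among them at a far lower level than RAX.

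The reverse pattern, 0 reads in each sh-METTL3 library, was met by 6 genes at that level. Among them were the neural adhesion molecule DSCAM (43.9, 50.9 and 28.0 scaled counts in the controls), CPSF1P1 (mean 16.9), FAM71E2 (12.2), AC023449.2 (10.2) and the cation channel TRPV4 (10.0). With no limit on the mean, 54 genes had reads in sh-METTL3 only and 32 in sh-Control only, and most of these were near the detection limit.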
